A study of Mus musculus with 13 samples.

Results

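A set of 10 inflammasome and interleukin-1 (IL-1) genes of the mouse was followed through 13 RNA sequencing libraries: Nlrp3, P2rx7, Casp1, Casp4, Pycard, Gsdmd, Il1b, Il1rn, Il18 and Aim2. They were taken by symbol from the 24328 genes in the deposited files, and 10 of 10 were found. Bone marrow was the source throughout: MLL-AF10 leukemia for mature AML cells (mAML) and leukemia stem cells (LSC), and wild-type mice for granulocyte-monocyte progenitors (GMP), each sequenced in a single library. The other 10 libraries follow MLL-AF10 LSC through A-485, which blocks the acetyltransferase activity of the coactivators p300 and CBP, with a pair of libraries untreated (0 h) and a pair after 8, 24, 48 and 72 h. No vehicle-treated cells are among the samples, and the labels give no dose, animal age, promoter or clone. Nothing says that the pair at each time came from separate cultures, so p-values measure only the spread between these libraries, which may be technical. The labels describe culture of the leukemia cells in serum with WEHI-conditioned medium, which is known as a source of interleukin-3.

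An inflammasome is a protein complex that myeloid cells assemble on sensing danger. A sensor (NLRP3 for membrane and ion disturbance, AIM2 for DNA in the cytosol) recruits the adaptor ASC, encoded by Pycard, which brings in caspase-1. Caspase-1 cuts the precursors of IL-1 beta and IL-18 into their active forms, and cuts gasdermin D, which then opens pores in the plasma membrane. P2X7, an ATP-gated channel, triggers NLRP3 through loss of potassium. Casp4, also known as caspase-11 in mice, senses bacterial lipopolysaccharide inside the cell and cuts gasdermin D directly. Il1rn encodes the receptor antagonist that keeps IL-1 from signalling.

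The sequences before the start sites of 5 members are given first, because these are the genes on which the results turn: Aim2, P2rx7 and Il1rn varied under A-485, and Nlrp3, P2rx7 and Il1b had the widest ratios between mAML and LSC. Each is the 250 bases upstream of a RefSeq start on GRCm38.p6, a later build than the mm9 of the counts, read 5′ to 3′ on the gene's own strand. Capitals mark the motif matches. Nlrp3 and P2rx7 have 2 starts each and Il1rn has 3, and for these genes the window shown is one that holds a match.
Aim2, chr1:173420354-173420603, + strand: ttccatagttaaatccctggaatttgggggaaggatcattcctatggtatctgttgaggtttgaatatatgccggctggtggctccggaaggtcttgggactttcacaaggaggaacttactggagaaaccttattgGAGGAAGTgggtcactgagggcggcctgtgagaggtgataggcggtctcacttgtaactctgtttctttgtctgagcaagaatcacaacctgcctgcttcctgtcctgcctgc
P2rx7, chr5:122643677-122643926, + strand: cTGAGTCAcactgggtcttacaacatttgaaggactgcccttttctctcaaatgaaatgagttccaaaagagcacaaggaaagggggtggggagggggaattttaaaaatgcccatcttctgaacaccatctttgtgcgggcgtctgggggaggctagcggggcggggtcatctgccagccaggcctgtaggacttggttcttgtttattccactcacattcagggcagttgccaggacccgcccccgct
Il1rn, chr2:24345121-24345370, + strand: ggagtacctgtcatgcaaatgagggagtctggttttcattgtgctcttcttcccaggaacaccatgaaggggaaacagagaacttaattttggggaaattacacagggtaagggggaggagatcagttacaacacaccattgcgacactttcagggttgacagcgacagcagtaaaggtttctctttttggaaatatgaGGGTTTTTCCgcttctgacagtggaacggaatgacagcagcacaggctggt
Nlrp3, chr11:59541319-59541568, + strand: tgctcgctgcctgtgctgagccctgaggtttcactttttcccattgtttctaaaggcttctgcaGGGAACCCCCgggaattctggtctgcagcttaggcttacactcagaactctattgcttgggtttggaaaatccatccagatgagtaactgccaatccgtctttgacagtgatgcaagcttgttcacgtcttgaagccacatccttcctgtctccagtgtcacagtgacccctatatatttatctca
Il1b, chr2:129371140-129371389, - strand: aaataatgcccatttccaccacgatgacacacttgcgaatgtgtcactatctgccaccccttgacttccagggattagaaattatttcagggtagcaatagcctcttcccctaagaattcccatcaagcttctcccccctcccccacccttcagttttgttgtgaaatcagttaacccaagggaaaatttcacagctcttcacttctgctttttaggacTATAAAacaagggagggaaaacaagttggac

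RefSeq starts were at hand for 9 of the 10 members, 14 starts in all. For 6 factors, motifs were searched on both strands. Shares are of 32851 upstream windows of the same length over all genes. The 10-base NF-kB motif (4.11% of windows) began 51 bases before the third Il1rn start and 186 bases before the first Nlrp3 start. Casp4 held it 93, 92 and 14 bases before its first start, where the first pair are overlapping matches on the same strand, shifted by 1 base. The AP-1 motif TGANTCA (6.75%) lay 249 bases before the first P2rx7 start and 141 bases before the first Il1rn start. The PU.1 motif GAGGAAGT (2.44%) lay 113 bases before the Aim2 start and 44 bases before the Pycard start. The C/EBP motif TTGCNNAA (9.56%) lay 142 bases before the Pycard start. A TATAAA box (12.4%) lay 31 bases before the Il1b start and 175 bases before the Il18 start. The interferon response element (2.98%) was in none of the 14 windows. The windows before the second starts of Nlrp3, P2rx7 and Il1rn held none of these motifs. Shares are per window, so a gene with more starts has more chances of a match. These matches are letters in a window, and no binding was measured.

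Total counts were 47257600 in mAML, 40468500 in LSC and 24532500 in GMP, and 6467760 to 9763280 in the time course. Expected counts of all 10 members were whole numbers in 13 of 13 libraries. Expression of 7 progenitor genes (Kit, Cd34, Mpo, Elane, Myb, Hoxa9 and Meis1), summed in TPM (a level corrected for transcript length and library size), was 953 in mAML, 19230 in LSC and 26400 in GMP. In the time course that sum was 2836 to 3515 TPM at 0 h, 353 to 723 TPM at 8 h and 438 to 509 TPM at 72 h. Mpo and Elane carried most of that fall. The other 5 genes summed to 584 to 614 TPM at 0 h, 245 to 310 TPM at 8 h and 435 to 492 TPM at 72 h. Kit was at 46.0 and 45.2 TPM at 0 h and 0.14 and 0 TPM at 72 h. Cd34 (226 and 248 TPM, then 105 and 108 TPM) and Myb (251 and 242 TPM, then 174 and 135 TPM) were also lower. Hoxa9 was at 48.5 to 59.9 TPM at 0 h and 145 to 146 TPM at 72 h. Meis1 was also higher at 72 h (46.6 to 68.5 TPM) than at 0 h (12.5 to 19.7 TPM). The 9 neutrophil markers summed to 1389 to 6404 TPM at 0 h and 3.19 to 13.9 TPM at 72 h, when 4 to 7 of them were listed at 0. The 12 monocyte and macrophage markers summed to 5426 to 7594 TPM at 0 h and 316 to 353 TPM at 72 h, a sum carried by Ly6c2. The other 11 summed to 195 to 205 TPM at 0 h, 73.3 to 95.4 TPM at 8 h and 259 to 302 TPM at 72 h. That sum went the other way at 72 h, carried by Adgre1 and Cd68. The median of all genes tested also rose, by 0.617 in log2(TPM + 1) from 0 to 72 h. The TPM values here are not corrected for that shift, and the rise of the 11-marker sum is not set apart from it. Adgre1 was at 123 to 125 TPM at 0 h and 162 to 205 TPM at 72 h, and Cd68 at 36.5 to 37.4 TPM and 72.8 to 74.8 TPM. Cd14 (26.2 and 33.0 TPM at 0 h, 13.2 and 21.5 TPM at 72 h), Csf1r, Fcgr1 and Cx3cr1 were lower at 72 h. The 6 mast cell, basophil and eosinophil markers summed to 416 to 595 TPM at 0 h and 6.53 to 15.1 TPM at 72 h. The 10 T and NK cell markers summed to 98.2 to 193 TPM at 0 h and 2.05 to 2.13 TPM at 72 h. Nkg7 carried the 0 h sum, and the other 9 summed to 6.05 to 11.3 TPM at 0 h and 0.14 to 1.71 TPM at 72 h. Cd163 was at 0 in 9 of the 10 time-course libraries. The mean effective transcript length per read moved as well, with 2848 to 2861 bases at 0 h and 3423 to 3530 bases at 72 h. The part of these shifts in the results was not tested. In bulk RNA, fewer cells of a type and less RNA per cell cannot be told apart.

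**Figure D1:**
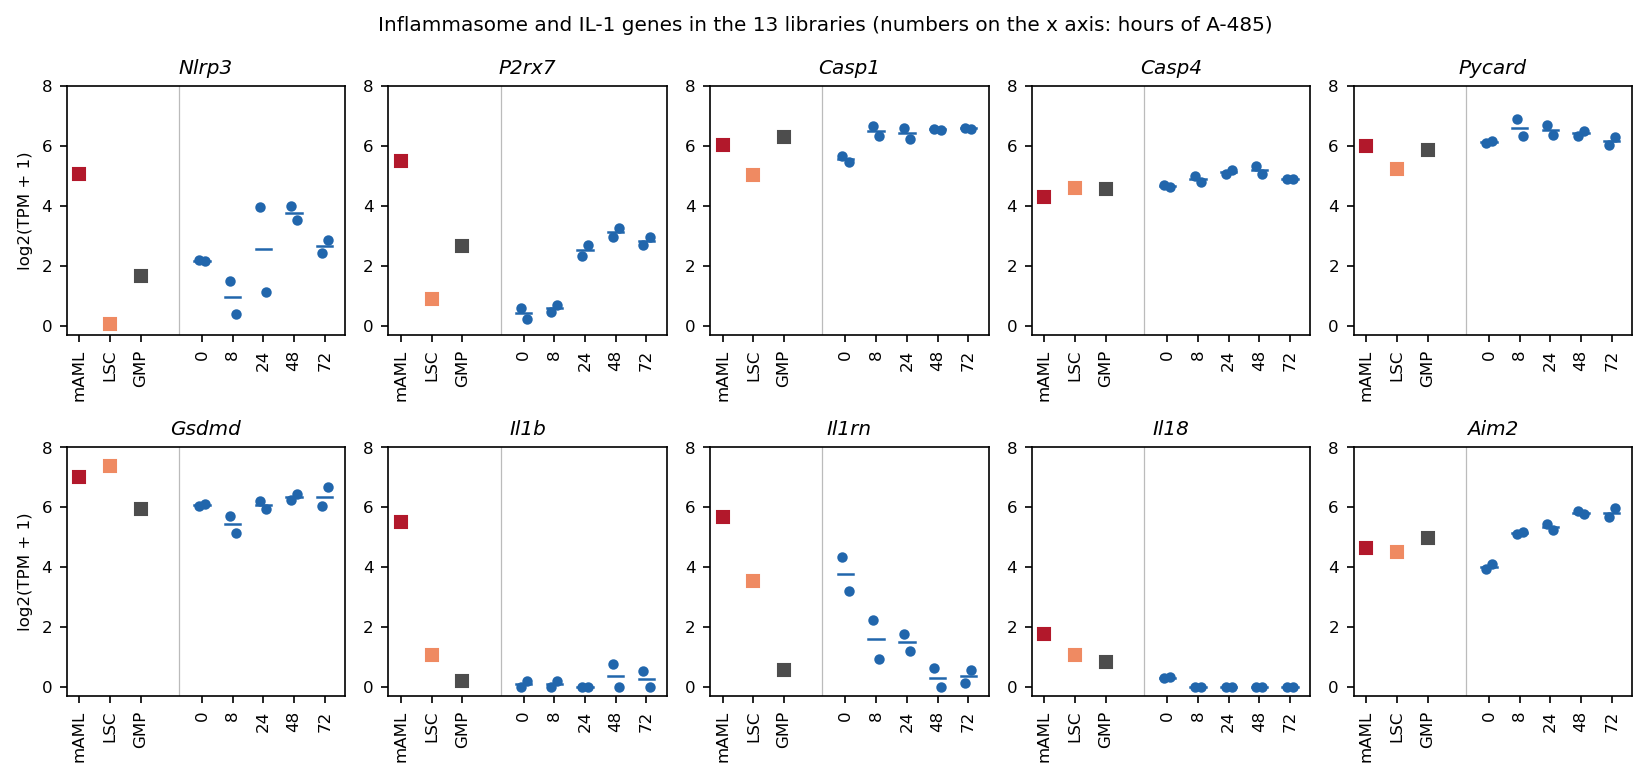
Level of each member in all 13 libraries as log2(TPM + 1), with the single libraries as squares, the time-course libraries as points and the mean of 2 libraries as a bar. P2rx7 reached 3.99 to 8.70 TPM from 24 h on, while Il18 was listed at 0 in all 8 treated libraries.

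Per length, Gsdmd, Casp1 and Pycard held the top 3 places among the members in each of the 8 groups, in varying order. In untreated cultured LSC at 0 h, Pycard was at 67.7 and 71.3 TPM and Gsdmd at 65.0 and 68.6 TPM, ranges that overlap. Casp1 followed at 50.1 and 43.6 TPM and Casp4 at 25.1 and 23.9 TPM. Aim2, at 14.4 and 16.1 TPM, lay inside the range of Il1rn, at 19.3 and 8.24 TPM. Nlrp3 was at 3.53 and 3.51 TPM, P2rx7 at 0.51 and 0.17 TPM, and Il18 at 0.23 and 0.26 TPM. Il1b was at 0 and 0.15 TPM. P2rx7, Il18 and Il1b were thus all near the floor, with 0 to 5 counts in a library. In the single LSC library the order differed: Gsdmd was at 165 TPM, Pycard at 36.7 TPM and Casp1 at 31.7 TPM, and Nlrp3 was at 0.05 TPM. That library and the 0 h libraries share a cell label and no replicate, so the difference was not tested.

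The first comparison asks what differs between the more mature leukemia cells and the stem cells. At least 2-fold higher in mAML than in LSC were 6 members, and none was lower; among 11521 genes 24.9% were 2-fold apart (16.3% higher, 8.58% lower). With 1 library each there is no test, and brackets hold the 95% exact counting interval of a log2 ratio of CPM (counts scaled by library size and composition). Among the sensors and triggers, Nlrp3 had 93.9 CPM (4136 counts) in mAML, against 0.150 CPM (6 counts) in LSC, a log2 ratio of 8.37 [8.17, 10.7]. P2rx7 had 137 CPM in mAML, against 2.82 CPM in LSC (5.53 [5.33, 5.88]). Thus both genes of the ATP route were low in LSC, whereas the DNA sensor Aim2 had 42.6 CPM in mAML, against 36.5 CPM in LSC (0.22 [0.12, 0.32]).

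Of the cytokine genes, Il1b had 38.8 CPM in mAML, against 0.922 CPM in LSC (5.2 [4.93, 5.91]). Its antagonist Il1rn had 84.3 CPM in mAML, against 17.1 CPM in LSC (2.30 [2.19, 2.43]). Per length, the antagonist to cytokine ratio was 1.11 in mAML, 9.49 in LSC and 3.12 in GMP, the last from 3 Il1b counts. Il18 was low in both, at 1.27 CPM in mAML, against 0.548 CPM in LSC, and its interval of 0.48 to 2.0 does not separate it from a smaller difference than 2-fold.

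The shared machinery differed less. Casp1 had 65.1 CPM in mAML, against 30.2 CPM in LSC (1.11 [1.01, 1.21]), and Pycard had 92.4 CPM in mAML and 51.1 CPM in LSC (0.85 [0.78, 0.93]). Gsdmd had 155 CPM in mAML, against 188 CPM in LSC (-0.28 [-0.33, -0.24]). Casp4 had 17.9 CPM in mAML, against 21.0 CPM in LSC (-0.23 [-0.37, -0.09]). The median ratio of the 10 members was 1.07, against -0.03 over all 11521 genes.

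Markers of other cells also differed between these libraries. The neutrophil list summed to 89160 TPM in mAML, 21980 TPM in LSC and 1915 TPM in GMP. The monocyte list without Ly6c2 summed to 1992 TPM in mAML, 217 TPM in LSC and 195 TPM in GMP. The 8 dendritic markers summed to 395 TPM in mAML and 21.5 TPM in LSC, and the T and NK cell markers without Nkg7 to 237 TPM in mAML and 1.93 TPM in LSC. Nkg7 itself was at 43.3 TPM in mAML and 153.5 TPM in LSC. A set of 6 erythroid markers, nearly all Hba-a1 and Hbb-b1, summed to 3385 TPM in mAML, 7.77 TPM in LSC and 252 TPM in GMP. The mast cell, basophil and eosinophil markers summed to 10.3 TPM in mAML, 18.2 TPM in LSC and 1291 TPM in GMP, and the whole T and NK cell list to 155 TPM in LSC and 998 TPM in GMP. Without Nkg7 that list summed to 1.70 TPM in GMP. No marker of the dendritic and T and NK cell lists was at 0 in mAML, and Siglech, Cd3e and Cd3g were at 0 in LSC. Their part in the ratios was not tested.

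The second comparison asks how the stem cells differ from normal progenitors. At least 2-fold higher in LSC than in GMP were 3 of the 10 members, and 3 were lower. Among the 8 that reached 1 CPM in the higher library the counts were 2 higher and 3 lower, while 25.6% of 11362 genes were 2-fold apart (13.4% higher, 12.2% lower). Nlrp3 had 0.150 CPM in LSC, against 5.01 CPM in GMP (-4.17 [-6.54, -3.91]), P2rx7 had 2.82 CPM in LSC and 12.6 CPM in GMP (-2.10 [-2.48, -1.84]), and Casp1 had 30.2 CPM in LSC and 62.9 CPM in GMP (-1.05 [-1.17, -0.95]). The lower members in this single LSC library were thus the NLRP3 sensor, its ATP trigger and its protease. In the cultured 0 h LSC, however, Nlrp3 was at 3.53 and 3.51 TPM, above the 2.17 TPM of GMP. P2rx7 (0.51 and 0.17 TPM, against 5.36 TPM in GMP) and Casp1 (50.1 and 43.6 TPM, against 77.3 TPM in GMP) were lower there too. These differences were not tested.

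The higher members in LSC were Il1rn, at 17.1 CPM against 0.678 CPM in GMP (4.40 [3.98, 5.42]), and Gsdmd, at 188 CPM against 59.6 CPM in GMP (1.66 [1.58, 1.74]). In the cultured 0 h LSC, Gsdmd was at only 65.0 and 68.6 TPM, against 61.4 TPM in GMP. Il1rn was at 19.3 and 8.24 TPM there, against 0.5 TPM in GMP. Il1b was at 0.922 CPM (37 counts) in LSC and 0.113 CPM (3 counts) in GMP, a ratio of 2.09 [1.37, 5.37]. Aim2, Casp4 and Pycard had ratios of -0.24, 0.27 and -0.40, and Il18 of 0.53 [-0.48, 2.0] from 22 counts in LSC and 9 in GMP. The median over the 8 members was -0.32, against 0.01 over all genes.

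Set against GMP, mAML had 6 members at least 2-fold higher and none lower, where 37.3% of 11738 genes were 2-fold apart (22.1% higher, 15.1% lower). The ratios were 7.29 [6.88, 10.70] for Il1b, 6.70 [6.29, 7.71] for Il1rn, 4.19 [3.98, 4.49] for Nlrp3, 3.43 [3.29, 3.61] for P2rx7, 1.57 [0.88, 3.11] for Il18 and 1.37 [1.30, 1.46] for Gsdmd. Aim2 (-0.02), Casp1 (0.05) and Casp4 (0.05) had intervals that include 0. Since the 3 comparisons share libraries, they are not independent of each other.

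**Figure D2:**
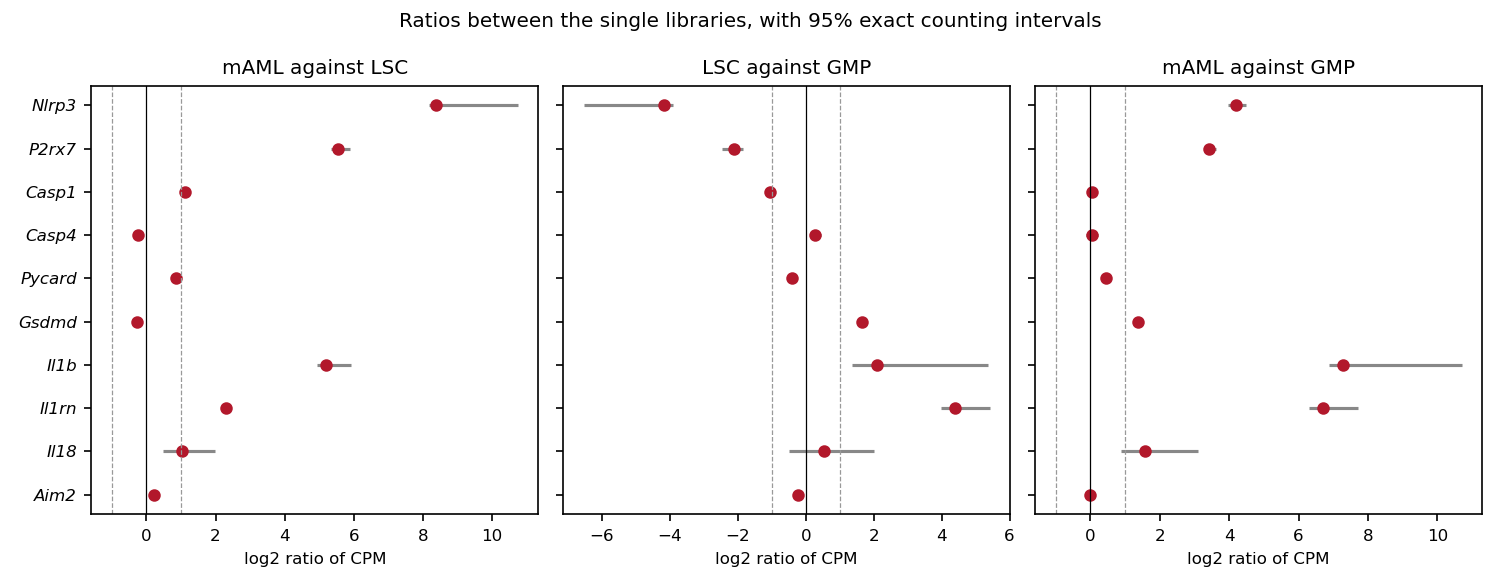
Log2 ratio of scaled CPM of each member between the single libraries, with 95% exact counting intervals; dashed lines mark 2-fold. Nlrp3 (8.37), P2rx7 (5.53) and Il1b (5.2) lie farthest right for mAML against LSC, and Nlrp3 (-4.17) farthest left for LSC against GMP.

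Other genes of the pathway, listed by role, differed between mAML and LSC in some lists and were near the share of all genes in others. Of 19 other sensors and regulators that reached 1 CPM, 12 were at least 2-fold higher in mAML and 1 lower, where 16.3% of all genes were higher and 8.58% lower. The same shares apply to the lists that follow. Zbp1, a sensor of Z-form nucleic acids, had 30.5 CPM in mAML, against 1.52 CPM in LSC (4.21 [3.95, 4.72]), and Nlrp12 had 14.6 CPM in mAML and 48.8 CPM in LSC (-1.73 [-1.87, -1.61]). Mnda (7.07) and Ifi204 (6.84), of the same DNA-sensor family as Aim2, had fractional counts, so reads shared within the family make them uncertain. Of 10 ATP and ion channel genes, 5 were higher and none lower, led by the cation channel Trpm2 (6.36 [6.09, 7.09]), with P2rx4 next to P2rx7 on the chromosome at 1.97 [1.81, 2.16]. Of 14 NF-kB genes, 6 were higher and none lower, with Nfkbiz, a nuclear co-regulator of IL-1 targets, at 4.12 [3.86, 4.62]. Of 8 receptor genes, 3 were higher and 1 lower, the lower count near the share of all genes: the decoy receptor Il1r2 had 1.32 [1.17, 1.49] and the shared signalling chain Il1rap -1.28 [-1.43, -1.14]. Of 10 other caspase, gasdermin and inhibitor genes that reached 1 CPM, 2 were higher (Dfna5 at 2.06 and Casp6 at 1.64) and 1 lower, near the share of all genes. The lower one, the neutrophil serpin Serpinb1a, is an inhibitor of neutrophil proteases and inflammatory caspases. It had 203 CPM in mAML, against 1137 CPM in LSC (-2.48 [-2.52, -2.45]). Of 16 receptor signalling genes, 2 were higher and none lower, also near that share. Of 8 response genes that reached 1 CPM, 6 were higher and 1 lower. Of 2 other IL-1 family genes that did, none was 2-fold apart.

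The third comparison asks what the p300 and CBP inhibitor did to these genes in LSC. In edgeR's quasi-likelihood test across 11119 genes, with Benjamini-Hochberg adjustment and all 10 time-course libraries in 1 model, 8 members could be tested. Those called at an adjusted p under 0.05 were 2 higher and 2 lower at 8 h, 2 higher and 1 lower at 24 h and at 48 h, and 2 higher and 3 lower at 72 h. The share of all genes called was 38.9% at 8 h (17.9% higher, 21% lower), 50.3% at 24 h (23.2% higher, 27.1% lower), 55.6% at 48 h (25.2% higher, 30.5% lower) and 55.3% at 72 h (25.9% higher, 29.4% lower). The members' counts are near these shares at 8 and 72 h and below them at 24 and 48 h. At 8 h the 4 calls became 1 without 0 h replicate 1, and 2 without 0 h replicate 2 or 8 h replicate 2. At 72 h the 5 calls became 3 without 0 h replicate 1, 0 h replicate 2 or 72 h replicate 1. The median log2 change of the 8 members was -0.07, 0.15, 0.09 and -0.25 at 8, 24, 48 and 72 h, against 0.01, -0.03, -0.04 and -0.02 over all genes. Tested over all treated times together, 3 of the 8 members were called (P2rx7, Aim2 and Il1rn), beside 59.8% of all genes; without 8 h replicate 1 there were 5. Of all calls against 0 h, 45.2% to 46.8% were higher. Scaled by library size alone the share was 65.4% to 72.8%, where the median of all genes moved to 0.28 to 0.35 on the log2 scale, and by limma on log2(TPM + 1) it was 76.1% to 78.8% (median shift 0.41 to 0.62).

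Aim2, the cytosolic DNA sensor, rose at 8 h and stayed higher. It was at 29.2 and 32.9 CPM at 0 h, 51.2 and 51.7 CPM at 8 h, 60.0 and 52.6 CPM at 24 h, 72.2 and 68.8 CPM at 48 h, and 60.5 and 79.4 CPM at 72 h. Each treated library lay above both 0 h libraries, and the 48 h values lay inside the 72 h range. The log2 change was 0.73 ± 0.16 (SE) at 8 h (edgeR adjusted p = 0.00717), 0.86 ± 0.16 at 24 h (0.00241), 1.18 ± 0.16 at 48 h (0.000347) and 1.17 ± 0.16 at 72 h (0.000367). Its call against 0 h held at all 4 times in each of the 17 other settings tried. From 8 to 72 h it differed by 0.44 ± 0.15 (edgeR adjusted p = 0.0562), which missed the threshold.

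P2rx7, the ATP-gated channel, rose late and by more. It had 3 and 5 counts (0.371 and 0.696 CPM) at 0 h, and was at 1.15 and 1.68 CPM at 8 h, 10.2 and 9.97 CPM at 24 h, 14.5 and 19.0 CPM at 48 h, and 5.89 and 15.0 CPM at 72 h. All treated libraries lay above both 0 h libraries, and from 24 h on above both 8 h libraries. The log2 change was 1.40 ± 0.65 at 8 h (edgeR adjusted p = 0.116, not called), 4.22 ± 0.58 at 24 h (0.000593), 4.95 ± 0.58 at 48 h (0.000177) and 4.27 ± 0.58 at 72 h (0.000388). The 72 h level was 2.87 ± 0.50 above that of 8 h (edgeR adjusted p = 0.00319), beside 15.1% of all genes higher in that comparison. In the highest library, P2rx7 reached 8.70 TPM, compared with 44.2 TPM in the single mAML library. The files give P2rx7 5 transcripts, and its mean effective length lay between 811 and 4756 bases among libraries; the lower end is the 0 h library with 3 counts. That length enters the TPM and not the counts tested.

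Nlrp3, the sensor that P2X7 activity triggers, did not pass the edgeR test at any time with all libraries in. It was at 11.9 and 11.8 CPM at 0 h, 4.60 and 0.783 CPM at 8 h, 33.9 and 2.85 CPM at 24 h, 30.9 and 22.3 CPM at 48 h, and 8.89 and 13 CPM at 72 h. The 24 h libraries stood 11.9-fold apart and the 8 h libraries 5.88-fold, while those of 0 h were alike. The 8 h values lay below both 0 h values, for a log2 change of -2.14 ± 1.03 (edgeR adjusted p = 0.13), and DESeq2 called it (adjusted p = 0.04). So did edgeR without 24 h replicate 1 (-2.13, edgeR adjusted p = 0.0227) or 24 h replicate 2 (-2.13, 0.0202), the libraries that stood farthest apart. The size rested on the 8 h libraries, with -3.88 without 8 h replicate 1 (edgeR adjusted p = 0.0743) and -1.36 without 8 h replicate 2 (0.41). The 48 h values lay above both 0 h values, with 1.17 ± 0.92 (edgeR adjusted p = 0.307). Without 24 h replicate 1 the 24 h change was -2.05 in place of 0.64.

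Il1rn, the IL-1 receptor antagonist gene, fell at every treated time, with the 2 libraries of a time far apart. It was at 37.7 and 16.0 CPM at 0 h, 5.52 and 1.34 CPM at 8 h, 3.35 and 1.78 CPM at 24 h, 0.677 and 0 CPM at 48 h, and 0.125 and 0.598 CPM at 72 h. The 8 treated libraries lay below both 0 h libraries, with 5 and 0 counts at 48 h and 1 and 5 counts at 72 h. The log2 change was -2.97 ± 0.83 at 8 h (edgeR adjusted p = 0.0215), -3.38 ± 0.85 at 24 h (0.0108), -6.21 ± 1.09 at 48 h (0.00148) and -6.14 ± 1.06 at 72 h (0.00145). The earlier calls rested on single libraries: without 0 h replicate 1 the values were -2.18 at 8 h (edgeR adjusted p = 0.166) and -2.60 at 24 h (0.0953). Without 8 h replicate 2 the 8 h value was -2.28 (edgeR adjusted p = 0.0925), and without 24 h replicate 2 the 24 h value was -3.00 (0.053). The later calls held: at 48 h the value was -5.28 without 48 h replicate 2 (edgeR adjusted p = 0.0121), and without 48 h replicate 1 the remaining library had 0 counts. At 72 h it was -5.45 without 72 h replicate 1 and -7.57 without 72 h replicate 2 (edgeR adjusted p = 0.0143 and 0.00908). The neutrophil markers, like Il1rn, were higher in replicate 1 at 0, 8, 24 and 48 h. They summed to 6404 TPM in replicate 1 and 1389 TPM in replicate 2 at 0 h, and to 1085 and 173 TPM at 8 h. The sums were 242 and 43.6 TPM at 24 h, and 91.3 and 12.1 TPM at 48 h. At 72 h the replicates went opposite ways, with Il1rn at 0.125 and 0.598 CPM (1 and 5 counts) and the marker sum at 13.9 and 3.19 TPM. The marker sum fell over time as Il1rn did. The part of those cells in the fall was not tested.

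Il1b and Il18, the substrates of caspase-1, had too few counts to test. Il1b had 6 counts over the 8 treated libraries and 1 over both 0 h libraries, with at most 3 in a library. Il18 had 0 counts over the 8 treated libraries and 2 over both 0 h libraries. A count of 0 allows up to 3 counts, which is 0.324 to 0.435 CPM in these libraries, so a rise or fall below that level was not detectable at this depth. Thus no time of A-485 took Il1b to its level in the single mAML library, 44.8 TPM, the treated maximum of Il1b being 0.70 TPM. The Il18 level in that mAML library was itself low, at 2.42 TPM.

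Casp1 and Casp4, neighbours on the chromosome, and the adaptor Pycard changed by less than 2-fold. Casp1 was at 55.8 and 48.7 CPM at 0 h, 83.9 and 63.9 CPM at 8 h, 74.5 and 58.5 CPM at 24 h, 64.5 and 65.1 CPM at 48 h, and 64.0 and 66.0 CPM at 72 h. All treated libraries lay above both 0 h libraries. With TMM scaling the call was made at 8 h alone, 0.50 ± 0.17 (edgeR adjusted p = 0.0448), and was lost without 0 h replicate 1 (0.64, edgeR adjusted p = 0.0682), 0 h replicate 2 (0.44, 0.17), 8 h replicate 1 (0.30, 0.229) or any 48 or 72 h library (0.50, 0.0616 to 0.0701). At 24, 48 and 72 h it was 0.35, 0.31 and 0.31 (edgeR adjusted p = 0.118, 0.153 and 0.145). With the transcript length trend removed, Casp1 was called at 8, 24, 48 and 72 h (0.60, 0.56, 0.62 and 0.56; edgeR adjusted p = 0.0211, 0.0233, 0.0146 and 0.0213), and it was also called at each time by limma on log2(TPM + 1) and with library size alone. The 72 h value with library size alone was 0.68 (edgeR adjusted p = 0.00781), which is 0.33 above the median shift of all genes. Per length it was 1.99 and 1.82 times as abundant as Casp4 at 0 h and 3.31 and 3.26 times at 72 h.

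Casp4 was at 26.4 and 25.2 CPM at 0 h, 24.5 and 20.3 CPM at 8 h, 23.6 and 26.5 CPM at 24 h, 25.6 and 21.6 CPM at 48 h, and 18.3 and 19.1 CPM at 72 h. Only the 72 h change was called, -0.46 ± 0.17 (edgeR adjusted p = 0.0454), and that call was lost without 7 of the 10 libraries in turn and in every other fit and scaling run, with the sign turned to 0.23 by limma on log2(TPM + 1). The left-out libraries that ended it were both of 0, 48 and 72 h and replicate 1 of 24 h, giving -0.49 to -0.39 (edgeR adjusted p = 0.05 to 0.194). Pycard was at 113 and 119.5 CPM at 0 h, 148 and 95 CPM at 8 h, 119 and 96.4 CPM at 24 h, 82.1 and 95.6 CPM at 48 h, and 64.6 and 81.5 CPM at 72 h. Its change at 72 h was -0.67 ± 0.22 (edgeR adjusted p = 0.027), and from 8 to 72 h -0.73 ± 0.22 (0.0309), beside 17.2% of all genes lower. The call from 8 to 72 h was lost without 5 of the 10 libraries in turn and by limma on log2(TPM + 1) (-0.44, adjusted p = 0.11). The 72 h call was lost without 0 h replicate 1 (-0.67, edgeR adjusted p = 0.0886), 0 h replicate 2 (-0.59, 0.12) or 72 h replicate 1 (-0.51, 0.152). It was also lost with library size alone, and turned to 0.03 by limma on log2(TPM + 1).

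Gsdmd, the pore-forming substrate, had a dip at 8 h. It was at 87.8 and 92.9 CPM at 0 h, 52.8 and 33.3 CPM at 8 h, 68.8 and 58.2 CPM at 24 h, 62.9 and 73.3 CPM at 48 h, and 53.0 and 85.7 CPM at 72 h. All treated libraries lay below both 0 h libraries, and the call was made at 8 h, -1.07 ± 0.26 (edgeR adjusted p = 0.0131). It was lost without 0 h replicate 1 (-1.07, edgeR adjusted p = 0.0536), 0 h replicate 2 (-0.99, 0.0696) or 8 h replicate 2 (-0.77, 0.0751). At 24, 48 and 72 h the values were -0.51, -0.41 and -0.38 (edgeR adjusted p = 0.135, 0.213 and 0.24), and limma on log2(TPM + 1) put them at 0.00, 0.26 and 0.28. The 72 h value was -0.08 without 72 h replicate 1 and -0.77 without 72 h replicate 2 (edgeR adjusted p = 0.837 and 0.0535). From 8 to 72 h the difference was 0.69 ± 0.26 (edgeR adjusted p = 0.0786).

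**Figure D3:**
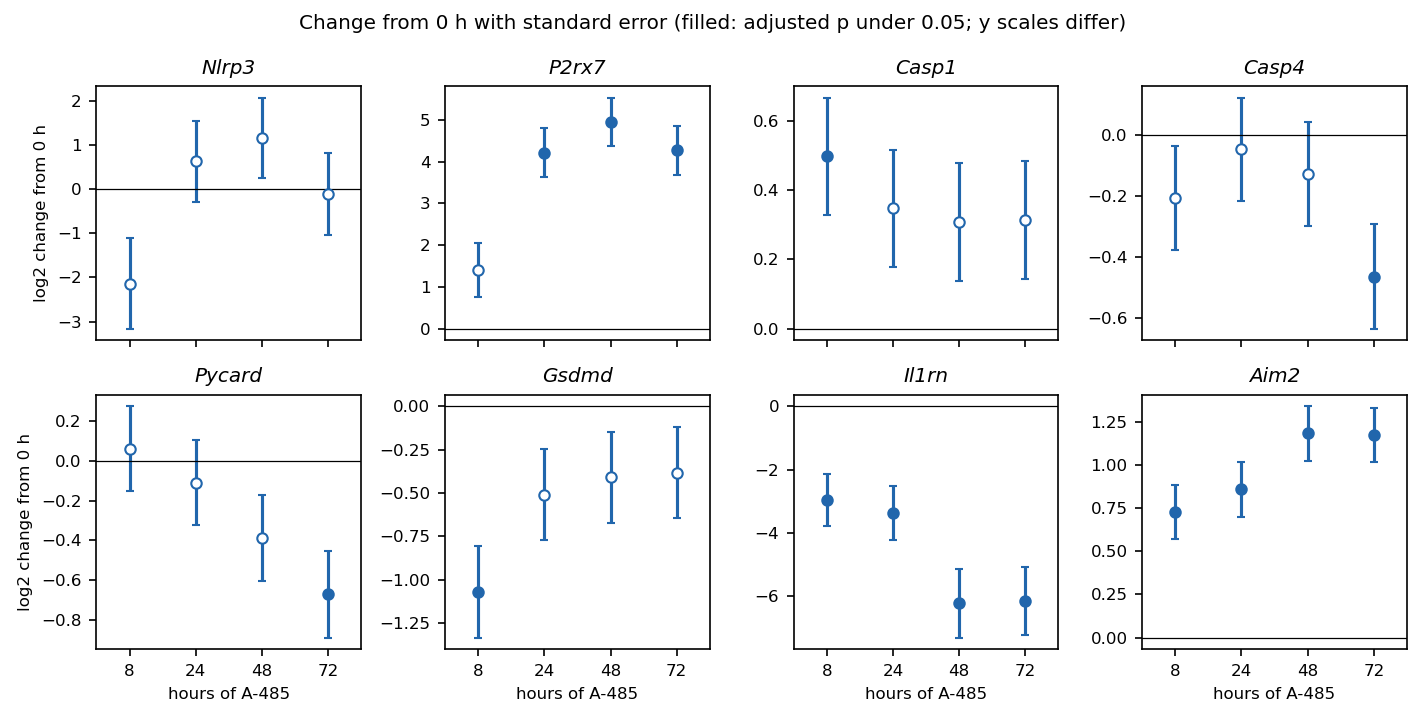
Log2 change from 0 h with its standard error for the 8 members tested, by hours of A-485; filled points passed an edgeR adjusted p of 0.05, and the y scales differ. Aim2 was called at 4 of 4 times, Il1rn at 4, P2rx7 from 24 h on, and Nlrp3 at none.

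Between 8 and 72 h, 1 member rose and 1 fell (P2rx7 and Pycard), beside 32.2% of all genes called. Those 2 calls became 1 without 0 h replicate 1, 0 h replicate 2 or 72 h replicate 2. Leaving out other libraries gave up to 3. At 72 h against 0 h, the DNA sensor and the ATP channel were higher, the antagonist was lower, and both cytokine genes had at most 3 counts in any time-course library.

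Among receptors of the IL-1 family, 6 of 8 could be tested, and at 72 h 4 were lower and none higher; limma on log2(TPM + 1) gave 3 lower and 1 higher. Of all genes, 25.9% were higher and 29.4% lower at 72 h, which is the background for each list that follows. The neutrophil markers were also lower in sum at 72 h (3.19 to 13.9 TPM) than at 0 h (1389 to 6404 TPM). So were the mast cell, basophil and eosinophil markers (6.53 to 15.1 TPM at 72 h, against 416 to 595 TPM). The T and NK cell markers were lower too (2.05 to 2.13 TPM at 72 h, against 98.2 to 193 TPM). Nkg7 carried that 0 h sum, and the other 9 summed to 6.05 to 11.3 TPM at 0 h. The part of these cells was not tested. The receptors' median change at 72 h was -3.92 (-3.71 with genes at 0 counts set to their bound), against -0.02 over all genes. Without 0 h replicate 2, 2 were lower. Il18rap, the accessory chain of the IL-18 receptor, was at 221 and 264.5 CPM at 0 h, 37.3 and 38.7 CPM at 8 h, 26.9 and 24.6 CPM at 24 h, 7.45 and 12.3 CPM at 48 h, and 9.77 and 6.70 CPM at 72 h. Each later time lay below both 0 h libraries, for a log2 change of -2.67 ± 0.23 at 8 h (edgeR adjusted p = 0.000101) and -4.88 ± 0.26 at 72 h (7.14e-06). The ligand-binding chain Il18r1 was at 0.751 and 1.79 CPM at 72 h against 17.4 and 24.7 CPM at 0 h (-4.02 ± 0.48, edgeR adjusted p = 0.000197). The decoy Il1r2 had 0 counts in all 8 treated libraries, against 2.59 and 1.81 CPM at 0 h. That is at least 13.1-fold lower at 8 h, from a floor of 3 counts over the 8 h libraries. That call (edgeR adjusted p = 0.0214) was lost in DESeq2 (0.125) and without 0 h replicate 2 (0.0893), 8 h replicate 1 (0.0594) or 8 h replicate 2 (0.0739). The signalling receptor Il1r1 had no more than 0.125 CPM in any time-course library.

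Among genes that act downstream of the receptor, more rose than fell. Of 14 NF-kB subunit and feedback genes, 4 were higher and 2 lower at 8 h, and 8 higher and none lower at 72 h, a count of 8 to 11 higher and none lower under each scaling run at 72 h. At 8 h 17.9% of all genes were higher and 21% lower, so the 8 h counts are not far from the background. Without 0 h replicate 1 the 8 h counts were 1 and 1, and without 8 h replicate 2, 48 h replicate 1 or 48 h replicate 2 the higher count was 2. Without 8 h replicate 1 the lower count was 1. The list's median change at 72 h was 0.59. Cyld, a deubiquitinase that restrains NF-kB, was at 231 ± 6.08 CPM at 72 h and 105 ± 8.95 CPM at 0 h (SD, n = 2 each), a change of 1.14 ± 0.10 (SE; edgeR adjusted p = 4.75e-05). Nfkb2, which encodes the p100 precursor, was at 65.5 ± 3.68 CPM at 72 h and 32.0 ± 2.62 CPM at 0 h (1.03 ± 0.14, edgeR adjusted p = 0.000391). Zfp36, whose product degrades cytokine mRNA, was at 129 ± 20.3 CPM at 72 h and 35.1 ± 10.1 CPM at 0 h (1.87 ± 0.24, edgeR adjusted p = 0.000293).

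Of 16 signalling genes from Myd88 to Ube2n, 7 were higher and 2 lower at 72 h, and 4 and 1 without 0 h replicate 2; library size alone gave 12 and 1, and limma on log2(TPM + 1) 14 and 0. The lower count was 1 without 0 h replicate 1 or 72 h replicate 2, and the median change was 0.42. Chuk, the kinase IKK-alpha, was at 100.1 ± 0.312 CPM at 72 h and 39.0 ± 0.402 CPM at 0 h (1.36 ± 0.13, edgeR adjusted p = 5.7e-05). Irak1, the receptor-associated kinase, was at 258 ± 4.20 CPM at 72 h and 155 ± 8.55 CPM at 0 h (0.74 ± 0.09, edgeR adjusted p = 0.000291). Of 11 response genes 6 could be tested, with 4 lower and none higher at 72 h, or 3 and 1 by limma on log2(TPM + 1), and a median change of -3.13 (-2.11 with genes at 0 counts set to their bound). Lcn2, a neutrophil granule gene that IL-1 also induces, was at 5.71 ± 2.41 CPM at 72 h and 252 ± 42.6 CPM at 0 h (-5.46 ± 0.30, edgeR adjusted p = 7.8e-06). Ptgs2, the prostaglandin synthase COX-2, had 0 counts at 72 h against 5.37 CPM over both 0 h libraries, at least 29.3-fold lower (floor of 3 counts over the group).

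Among other sensors and their regulators there were 5 higher and 3 lower of 14 tested at 72 h, not far from the shares of all genes (7 and 2 with library size alone, 6 and 2 by limma on log2(TPM + 1), 5 and 5 with the transcript length trend removed). The median change was 0.26. Naip5, the flagellin receptor of the NLRC4 inflammasome, was at 135 ± 29.6 CPM at 72 h and 57.1 ± 1.96 CPM at 0 h (1.24 ± 0.16, edgeR adjusted p = 0.000309); its near copies make its count uncertain. Trim30a, reported in mice to dampen NLRP3, was at 108 ± 25.2 CPM at 72 h and 36.5 ± 1.61 CPM at 0 h (1.57 ± 0.18, edgeR adjusted p = 0.000181). Its counts in the single libraries were fractional, so reads shared with other genes make its count uncertain too. Mefv, which encodes the sensor pyrin, was at 9.0 ± 0.377 CPM at 72 h and 107 ± 0.301 CPM at 0 h (-3.57 ± 0.50, edgeR adjusted p = 0.000467). Nlrp12 was at 0.424 ± 0.246 CPM at 72 h and 42.1 ± 9.95 CPM at 0 h (-6.57 ± 0.99, edgeR adjusted p = 0.000688).

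Most other ATP and ion channel genes that passed the test fell. Of 8 ATP and ion channel genes tested, 1 was higher and 5 lower at 72 h (2 and 3 by limma on log2(TPM + 1)). The higher one was P2rx4, the neighbour of P2rx7, which was lower at 8 h. The list's median change at 72 h was -1.09. P2rx4 was at 14.5 ± 0.770 CPM at 8 h and 30.5 ± 2.12 CPM at 0 h (-1.07 ± 0.17, edgeR adjusted p = 0.00155), and at 56.6 ± 8.49 CPM at 72 h (0.89 ± 0.16, 0.00171). P2rx1, another ATP-gated channel, was at 7.75 ± 1.39 CPM at 72 h and 36.3 ± 1.68 CPM at 0 h (-2.22 ± 0.27, edgeR adjusted p = 0.000197). Panx1, a channel that releases ATP, was at 18.4 ± 4.94 CPM at 72 h and 46.5 ± 5.41 CPM at 0 h (-1.33 ± 0.26, edgeR adjusted p = 0.00247).

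Of 10 other caspase, gasdermin and inhibitor genes tested, 1 was higher and 3 lower at 72 h, but 5 and 2 by limma on log2(TPM + 1), and the median change was -0.23. Ninj1, whose product ruptures the membrane after pore formation, was at 32.2 ± 2.57 CPM at 8 h and 159 ± 6.97 CPM at 0 h (-2.30 ± 0.13, edgeR adjusted p = 1.75e-05). Serpinb1a was at 6.46 ± 2.37 CPM at 72 h and 458 ± 20.8 CPM at 0 h (-6.15 ± 0.76, edgeR adjusted p = 0.000231). Like Lcn2, Serpinb1a moved over time with the neutrophil marker sum (3.19 to 13.9 TPM at 72 h, against 1389 to 6404 TPM at 0 h), whose part was not tested. Between the single libraries Serpinb1a went against that sum. It had 203 CPM in mAML and 1137 CPM in LSC, where the markers summed to 89160 and 21980 TPM. Serpinb9, a granzyme B inhibitor, was at 13.3 ± 1.47 CPM at 72 h and 1.88 ± 0.489 CPM at 0 h (2.81 ± 0.29, edgeR adjusted p = 0.000102). Of the 8 other IL-1 family genes only Il18bp, the IL-18 binding protein gene, could be tested. It was at 8.94 ± 1.95 CPM at 24 h and 4.24 ± 0.289 CPM at 0 h (1.07 ± 0.32, edgeR adjusted p = 0.0227). That call was lost without 0 h replicate 1 (1.18, edgeR adjusted p = 0.0723), 0 h replicate 2 (1.04, 0.0967) or 24 h replicate 2 (0.83, 0.127).

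**Figure D4:**
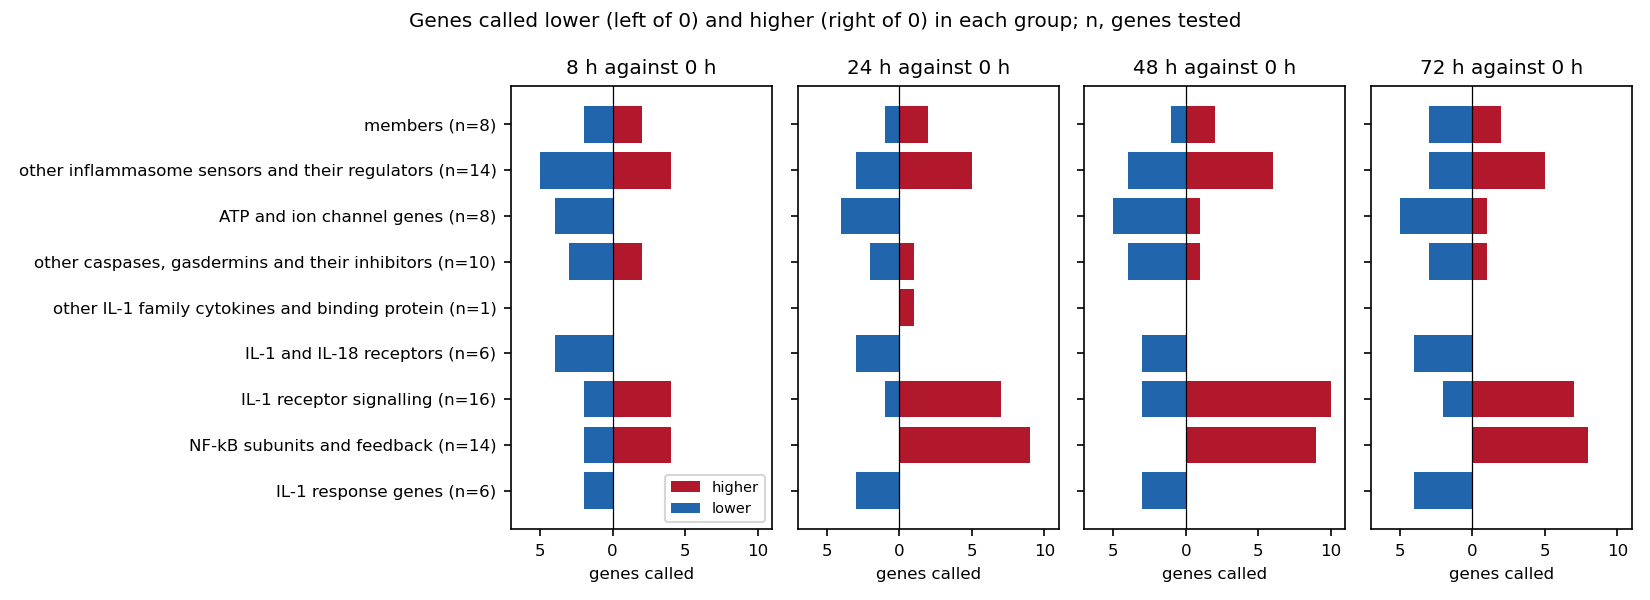
Number of genes of each list called lower (left of 0) and higher (right of 0) at each time of A-485 against 0 h; n is the number of genes tested. At 72 h the NF-kB list had 8 higher and none lower, and the receptor list none higher and 4 lower; limma on log2(TPM + 1) gave 3 receptors lower and 1 higher.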

How the data were processed

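Total RNA was extracted with RNeasy columns per the labels' protocols, and the submitters' processing notes name STAR, RSEM and mm9, with versions not given in the sources used here. Each deposited file holds, per gene, the expected counts that the authors estimated with RSEM, which shares ambiguous reads among genes, and the TPM values the authors deposited beside them. For testing, the expected counts were rounded to integers, and the 10 time-course libraries were fitted in 1 model in edgeR 4.0.16 (R 4.3.3) with TMM scaling, its expression filter (11119 genes kept) and the quasi-likelihood test, with Benjamini-Hochberg adjustment and a threshold of 0.05. Standard errors come from the log2 change and its F statistic. The single libraries were scaled by TMM and compared as log2 ratios with a prior count of 5 and 95% exact binomial intervals. Intervals and the floor of 3 counts cover counting error only. Alternatives were library size alone, no filter beyond 1 count, a replicate block, removal of the transcript length trend, limma 3.58.1 on log2(TPM + 1) and log2(TPM + 0.1), DESeq2 1.42.0 and leaving out each library. On the log2(TPM + pseudocount) scale the change of low genes is understated. The scripts were tested on simulated data.

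The members and lists were chosen with earlier results of these data known. The rule for named genes took all members, and from each list up to 4 genes called over all treated times with the smallest adjusted p, or, in the single libraries, up to 4 with the largest ratio of mAML to LSC and at least 10 CPM. Il1r1 was named after its values were seen. Upstream windows and neighbouring genes come from RefSeq. Some markers of other cell types are not reported here. The marker sums without a leading gene were added after the data were seen.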

Additional observations from a re-analysis of the deposited data

Results flagged for a closer look

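For 2 members the change from 0 h differed between 72 h and 8 h by the edgeR test of the difference itself. For P2rx7 the 72 h change exceeded the 8 h change by 2.87 ± 0.50 (SE, edgeR adjusted p = 0.00319), and both 72 h libraries lay above both 8 h libraries. For Pycard the difference was -0.73 ± 0.22 (SE, edgeR adjusted p = 0.0309), with both 72 h libraries, at 64.6 and 81.5 CPM, below both 8 h libraries, at 148 and 95 CPM. That call was lost without 0 h replicate 1 (-0.73, edgeR adjusted p = 0.0509), 0 h replicate 2 (-0.73, 0.0513), 8 h replicate 1 (-0.39, 0.187), 72 h replicate 1 (-0.58, 0.157) or 72 h replicate 2 (-0.91, 0.0555). The part of any technical difference between the times in either result was not tested.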

How the results depend on the processing

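Calls of Aim2 at 4 times and of P2rx7 from 24 h on held in each alternative run. The number of members called was 3 at 24 h and at 48 h, and became 5 at 24 h and 5 at 48 h with limma on log2(TPM + 1) and on log2(TPM + 0.1). From 8 to 72 h it was 2 and became 4 with no filter beyond 1 count and 4 with DESeq2. Over all treated times it was 3 and became 6 with no filter beyond 1 count, with limma at either pseudocount and with DESeq2. Leaving out each library in turn gave 1 to 5 members at 8 h, 2 to 3 at 24 h, 3 at 48 h, 3 to 5 at 72 h, 1 to 3 from 8 to 72 h and 3 to 5 over all times. The number of all genes called at 8 h, 4324, was 2792 without 0 h replicate 1, 2716 without 0 h replicate 2 and 2799 without 8 h replicate 2. From 8 to 72 h it was 3583, and 2061 without 72 h replicate 2.

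These log2 changes turned sign against the main values. With library size alone, Casp4 was 0.11 at 8 h, 0.26 at 24 h, 0.22 at 48 h. Pycard was 0.20 at 24 h. Nlrp3 was 0.25 at 72 h. With limma on log2(TPM + 1), Casp4 was 0.22 at 8 h, 0.45 at 24 h, 0.53 at 48 h, 0.23 at 72 h, 0.00572 from 8 to 72 h. Pycard was 0.40 at 24 h, 0.28 at 48 h, 0.029 at 72 h. Gsdmd was 0.00406 at 24 h, 0.26 at 48 h, 0.28 at 72 h. Nlrp3 was 0.47 at 72 h. Casp1 was 0.086 from 8 to 72 h. With limma on log2(TPM + 0.1), Casp4 was 0.23 at 8 h, 0.47 at 24 h, 0.54 at 48 h, 0.24 at 72 h, 0.00601 from 8 to 72 h. Pycard was 0.40 at 24 h, 0.28 at 48 h, 0.029 at 72 h. Gsdmd was 0.00404 at 24 h, 0.27 at 48 h, 0.28 at 72 h. Nlrp3 was 0.57 at 72 h. Casp1 was 0.087 from 8 to 72 h. With the length trend removed, Casp4 was 0.18 at 24 h, 0.21 at 48 h. Leaving out 1 library at a time, Pycard at 8 h ran from -0.28 to 0.35 (turned without 8 h replicate 1), Casp4 at 24 h ran from -0.13 to 0.037 (turned without 0 h replicate 1 or 24 h replicate 1), Nlrp3 at 24 h ran from -2.05 to 1.52 (turned without 24 h replicate 1), Pycard at 24 h ran from -0.27 to 0.036 (turned without 24 h replicate 2), Nlrp3 at 72 h ran from -0.41 to 0.14 (turned without 72 h replicate 1), Casp1 from 8 to 72 h ran from -0.37 to 0.012 (turned without 8 h replicate 1).

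The replicate numbers did not pair the libraries alike over all times (correlations of their deviations from -0.41 to 0.64 over 10 pairs of times). The correlation was 0.64 for 8 h with 24 h, but -0.40 for 8 h with 72 h and -0.41 for 24 h with 72 h. The neutrophil marker sum was higher in replicate 1 at each time (6404 and 1389 TPM at 0 h, 13.9 and 3.19 TPM at 72 h). With the replicate block, Casp4 at 72 h was -0.46 and no longer called (edgeR adjusted p = 0.056), and Il1rn from 8 to 72 h was -2.91 and called (0.0422). The single-library counts stayed within 1 of the 6 members under each alternative. Il1b, Il18 and the late Il1rn levels were limited by depth. The cause of the other changes was not tested.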
